A study of Rattus norvegicus with 12 samples.

Results

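Acupuncture-treated rats were compared with untreated rats of the same injury model, in 8 of the 12 libraries of the series. The members were chosen by sample title. The acupuncture group is replicates 5, 22, 35 and 55, and the group called HIBD model (hypoxic-ischemic brain damage) is replicates 2, 8, 16 and 18. Every library was made from total RNA of prefrontal cortex, taken from SD rats on postnatal day 28. The 4 libraries of the normal group have the same strain, tissue and age and are given as a reference level. The labels of the acupuncture group name the treatment alone, and the title of the series places it in rats with such damage. The labels state neither sex, litter and age at injury nor the points needled and the number of sessions. Whether a replicate number stands for 1 animal is not stated either. A p-value here sets a difference against the spread between these libraries, and that spread may be technical.

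Hypoxic-ischemic brain damage in newborn animals follows a spell of low oxygen and reduced blood flow, and injures neurons and the cells that form myelin. Acupuncture is the stimulation of points on the body with fine needles, and it is studied as a treatment during recovery from such an injury. The prefrontal cortex serves working memory, planning and the control of behaviour, and in rats it is still maturing at weaning. The comparison asks what differed in the RNA of this tissue between treated and untreated animals of the model.

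The deposited values are estimated counts, which were summed over the transcripts of each gene. Levels are given as CPM, the estimated count per 1000000 of a library total scaled by TMM (trimmed mean of M-values). The files do not pair Ensembl identifiers with gene names, and none of the 32883 identifiers matched the reference table. Genes are therefore given by identifier, without a function, and no promoter or protein sequence could be assigned to one. For the same reason the tissue label was not checked against marker genes, and the lists of pathway and cell type genes were not analysed. In bulk tissue, fewer cells of a type and less RNA per cell cannot be told apart.

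Measures of whole libraries overlapped between the groups. Totals ranged from 714904584 to 1044299266 estimated counts in acupuncture and from 890562476 to 1090316733 in HIBD model libraries. Loci named by a transcript assembler, with no Ensembl identifier, held 1.13% to 2.24% of the estimated counts in acupuncture and 1.43% to 2.35% in HIBD model libraries. The number of Ensembl genes above 0, the share of the 10 most abundant genes and the rank correlation of a library's deviation with transcript length were compared in the same way. None of these 5 measures separated the groups (two-sided exact permutation tests over 70 assignments, p from 0.686 to 0.914, adjusted 0.914 each). The smallest p that 4 against 4 libraries allow is 0.0286.

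HIBD model replicates 2 and 18 stood apart from the other 6 libraries. Genes were described where they passed edgeR's expression filter and had a mean of at least 1 CPM over the 8 libraries. These were 14034 Ensembl genes. A gene present in few libraries could be left out by that filter even at a higher mean. On the first principal component of the 14034 genes, computed on log2(CPM + 1), replicates 2 and 18 lay at 40.5 and 45.1. HIBD model replicates 8 and 16 lay at -11.7 and -26.0, and the acupuncture libraries at -1.43, -10.9, -22.8 and -12.8. This component held 40.4% of the variance, and it placed HIBD model replicates 8 and 16 beside the treated libraries. The normal libraries were not used to compute it, though they entered the expression filter and the scaling. Projected onto this component, they lay between 5.39 and 32.4, between the pair and the other 6. Replicate 2 had the lowest and replicate 18 the highest total of estimated counts in the group. The rank correlation of a library's deviation with transcript length was -0.017 and 0.025 in the pair, 0.084 and 0.103 in HIBD model replicates 8 and 16, -0.015 to 0.101 in acupuncture and -0.156 to -0.00076 in normal libraries. The part of these totals and correlations in the split was not tested. The main counts and the named genes are therefore also given without this pair.

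**Figure D1:**
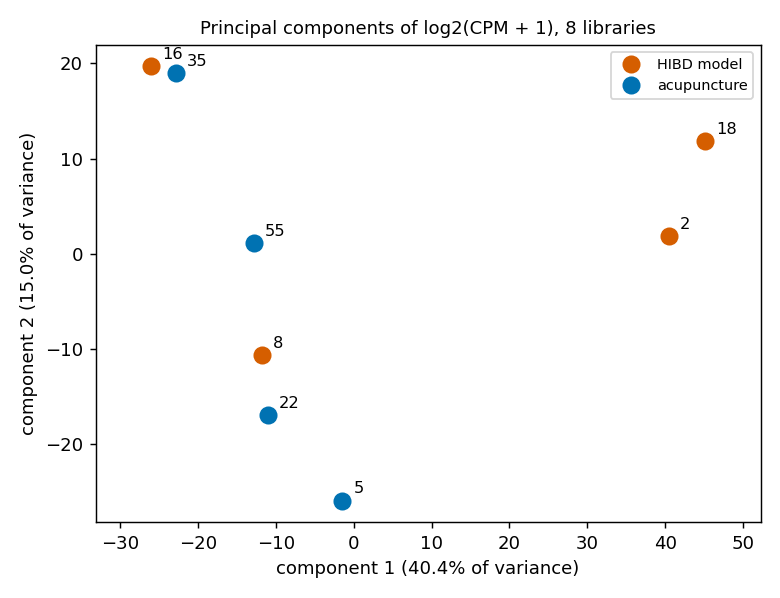
Scores of the 8 libraries on principal components 1 (horizontal axis, 40.4% of variance) and 2 (vertical axis) of log2(CPM + 1) over 14034 Ensembl genes, in units of the component; each point is 1 library with its replicate number, orange for HIBD model and blue for acupuncture. HIBD model replicates 2 and 18 lie at 40.5 and 45.1 on component 1, and the other 6 libraries lie between -26.0 and -1.43.

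The same pattern was seen gene by gene. In 2148 of the 14034 genes (15.3%) HIBD model replicates 2 and 18 were the 2 highest of the 8 libraries, and in 2475 genes (17.6%) the 2 lowest. The next most frequent pair at the top was HIBD model replicate 16 with acupuncture replicate 35, in 1403 genes (10.0%). Both of replicates 2 and 18 lay at least 2-fold above all other 6 libraries in 179 genes. In the median of these genes they averaged 13.5 CPM, HIBD model replicates 8 and 16 averaged 2.27 CPM and the acupuncture group 2.46 CPM. The normal libraries had no part in the 2-fold criterion, but they entered the expression filter and the scaling. They averaged 7.34 CPM, and in 126 of the 179 genes all 4 of them also lay above those 6 libraries. In the opposite direction, both lay at least 2-fold below the other 6 in 99 genes, and in 55 of these all 4 normal libraries also lay below those 6, by any amount. How often all 4 normal libraries lay beyond those 6 over all 14034 genes is not given. These genes were chosen from the values of the 8 libraries, so the counts are a description without a test.

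Pearson's r over the 14034 genes, which share library scaling and are not independent replicates, lay between 0.952 and 0.982 for the 6 pairs of HIBD model libraries, with a median of 0.964. It lay between 0.974 and 0.984 for the 6 pairs of acupuncture libraries, with a median of 0.981. The 16 pairs across the groups lay between 0.957 and 0.983, with a median of 0.972. Without HIBD model replicates 2 and 18, the 8 remaining pairs across the groups had a median of 0.981, and HIBD model replicates 8 and 16 had an r of 0.978 with each other. Replicates 2 and 18 had an r of 0.982 with each other, so the low values within the HIBD model group were the 4 pairs across this split.

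The median SD of log2(CPM + 1) over the 14034 genes was 0.198 for the HIBD model group, 0.150 for acupuncture and 0.140 for normal (n = 4 each). The SD was larger in HIBD model than in acupuncture libraries for 8927 genes (63.6%), and it reached 1 or more in 402 genes against 194. Without replicates 2 and 18, the median SD in the remaining 2 HIBD model libraries was 0.120, and 40.6% of genes had the larger SD there. An SD of 2 libraries tends to be lower than one of 4, and the difference in spread between the groups was not tested.

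No gene passed an adjusted p of 0.05 between acupuncture and HIBD model libraries. Of 27885 genes tested, 0 were called by edgeR's quasi-likelihood test with Benjamini-Hochberg adjustment (0%), with 0.907 as the lowest adjusted p. Without adjustment, 1481 genes (5.31%) had a p under 0.05, of which 542 were higher and 939 lower in acupuncture. DESeq2 called 340 genes of 29050 with an adjusted p (1.17%), and limma-voom called 0. Without HIBD model replicates 2 and 18, 1032 genes lay at an unadjusted p under 0.05, and their split turned to 729 higher and 303 lower. With 1 surrogate variable it was 822 higher and 496 lower, and with limma-voom 810 and 686. The direction in which most of these genes lay thus changed with some methods and with 2 libraries. DESeq2 on all 12 libraries kept it, with 859 higher and 1506 lower. Leaving out single HIBD model libraries gave 1092, 2364, 2849 and 897 genes without replicates 2, 8, 16 and 18. Most of these genes were lower in each of these fits.

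**Figure D2:**
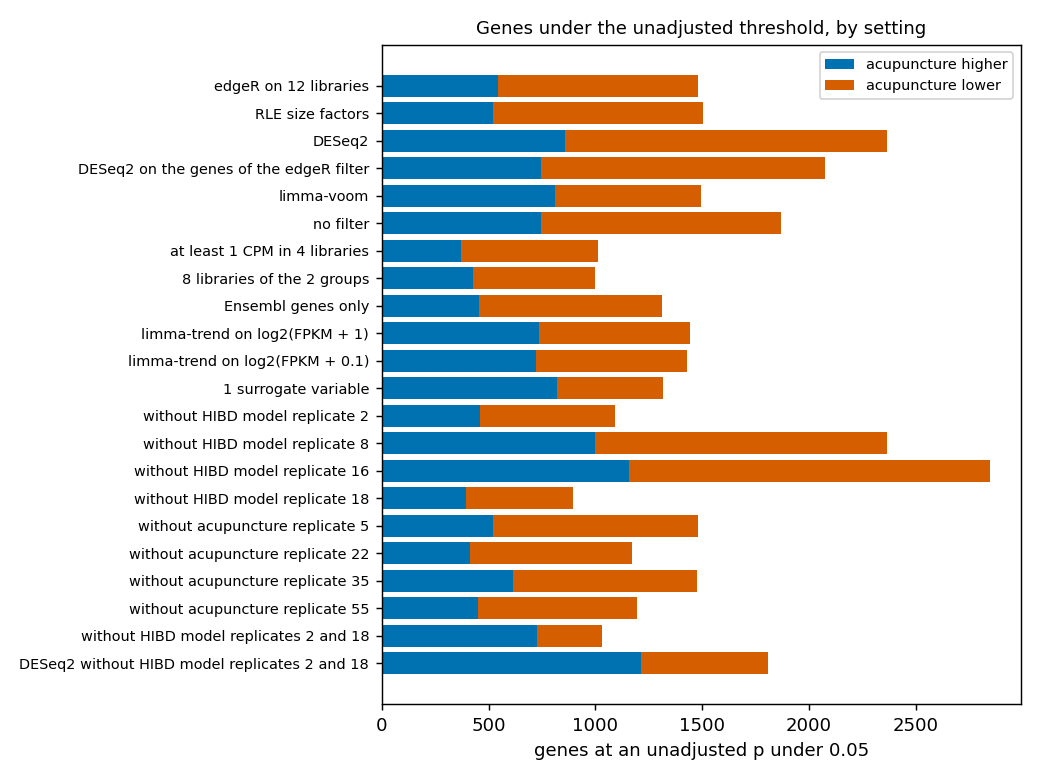
Number of genes at an unadjusted p under 0.05 between acupuncture and HIBD model libraries (horizontal axis), for edgeR on 12 libraries and for each alternative (vertical axis); blue is higher and orange lower in acupuncture. EdgeR on 12 libraries gives 542 higher and 939 lower genes, and without HIBD model replicates 2 and 18 it gives 729 and 303.

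The 14034 Ensembl genes that edgeR's filter kept at a mean of 1 CPM or more over the 8 libraries were centred near no difference. Their median log2 fold change, acupuncture minus HIBD model, was 0.01, with quartiles of -0.11 and 0.13 and with 5% of genes below -0.53 and 5% above 0.40. Acupuncture was higher in 7417 genes and lower in 6617. An unadjusted p under 0.05 was reached by 890 of them (6.34%), 350 higher and 540 lower. The 4 acupuncture libraries lay wholly outside the range of the 4 HIBD model libraries in 331 genes (2.36%). Among exchangeable libraries, 4 against 4 separate fully in a share of 0.0286 of assignments, the smallest p of the exact permutation test. A share of this size is thus reached without a group difference. In the 331 genes, the direction was as follows. The acupuncture libraries lay above in 195 (1.39%) and below in 136 (0.969%), with a median absolute log2 fold change of 0.33. Scaling by library total alone turned this split to 123 above and 170 below, and RLE size factors gave 167 and 148. Left out in turn, single libraries gave 456 to 1243 such genes, and leaving out HIBD model replicates 2 and 18 gave 1365. In all these settings fewer libraries have to lie apart. The share of 0.0286 does not apply to them, and their counts cannot be set against the 331. For the same 14034 genes, the groups did not overlap in 1628 (11.6%) between HIBD model and normal and in 2694 (19.2%) between acupuncture and normal libraries. These 3 comparisons share libraries, and the differences between their counts were not tested.

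The replicate error sets how large a change could have been missed. A 95% interval of the log2 fold change could be computed for 14028 of the 14034 genes, from the edgeR fit and without adjustment for the number of genes. The median distance from the estimate to either end was 0.33. In 11742 genes (83.7%) the whole interval lay within -1 and 1, so that a 2-fold difference in either direction lay outside it. In 8912 genes (63.5%) it lay within -0.58 and 0.58, the bounds of a 1.5-fold difference. In 2286 genes the interval reached past 2-fold in at least 1 direction. Between 1 and 5 CPM 71.5% of genes had an interval within -1 and 1, between 5 and 20 CPM 84.9%, between 20 and 100 CPM 90.9% and above that 92.0%. The median distance from the estimate to either end was 0.45, 0.31, 0.26 and 0.28 in these 4 classes, so it was widest in the class of lowest level. In these 4 classes of level, 5.83%, 6.66%, 6.90% and 5.51% of genes had an unadjusted p under 0.05.

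**Figure D3:**
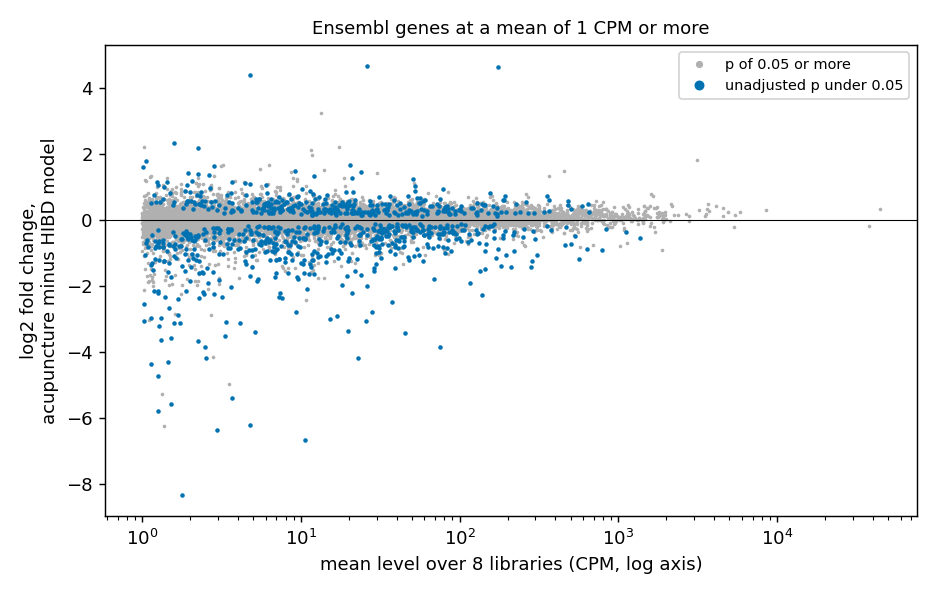
Log2 fold change of acupuncture minus HIBD model (vertical axis) against the mean level over the 8 libraries (CPM, log axis). Shown are the Ensembl genes that edgeR's filter kept at 1 CPM or more, with values in both groups. Each point is 1 gene, blue at an unadjusted p under 0.05. The quartiles are -0.11 and 0.13, and the 271 genes at -1 or below outnumber the 74 at 1 or above.

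Most large differences were lower levels in acupuncture, and most of these were no longer as large without HIBD model replicates 2 and 18. An absolute log2 fold change of 1 or more was reached by 345 of the 14034 genes (2.46%), 74 higher and 271 lower. Among the 271, replicates 2 and 18 were the 2 highest HIBD model libraries in 203. The same share over all 14034 genes is not given, and the 271 were picked by their values in these same libraries. The groups did not overlap in 34 of the 345 genes, 16 higher and 18 lower, against 331 (2.36%) of all 14034 genes. Left out in turn, every one of the 8 libraries kept the size at 1 or more in 134 genes, 21 higher and 113 lower. Of single libraries, replicate 18 had the most weight: 99 of the 271 lower genes came under a size of 1 without it, against 56 without replicate 2 and 14 to 35 without any other library. Without both replicates 207 of the 271 did so, and of all 345 genes 109 changed sign. In that fit 173 genes were higher and 128 lower by 1 or more. No other pair of libraries was left out for comparison.

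The share of genes at a low p was larger among long transcripts. The 14034 genes were split into 5 classes of equal size by a relative transcript length, the ratio of deposited estimated count to deposited FPKM. From the shortest to the longest class, 4.03%, 4.85%, 5.92%, 7.59% and 9.33% of genes had an unadjusted p under 0.05. A size of 1 or more on the log2 scale was reached by 40 genes of the shortest class and 148 of the longest. Without HIBD model replicates 2 and 18, the shares at an unadjusted p under 0.05 were 2.74%, 3.67%, 3.60%, 4.03% and 3.92%. The median log2 fold change was between 0.00 and 0.02 in every class, and the trend with length was not tested.

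Gene ENSRNOG00000000989 had the lowest p of all genes tested. It was at 6.19, 6.03, 6.38 and 6.25 CPM in HIBD model replicates 2, 8, 16 and 18 and at 10.3, 10.1, 9.12 and 13.0 CPM in acupuncture replicates 5, 22, 35 and 55. The HIBD model libraries lay close together, including the pair that stood apart, and all treated libraries lay above them. The groups averaged 6.21 ± 0.145 and 10.6 ± 1.68 CPM (SD, n = 4 each), and the 95% interval of the log2 fold change of 0.78 ran from 0.51 to 1.04 (SE 0.12, edgeR unadjusted p = 4.68e-05, adjusted p = 0.907). The normal libraries ranged from 10.3 to 13.4 CPM. Against them the log2 difference was -0.93 in HIBD model (edgeR adjusted p = 0.0372) and -0.16 in acupuncture libraries (edgeR adjusted p = 0.445). These 2 comparisons share the normal libraries. The gene was picked by its p between these same HIBD model and acupuncture libraries, so neither p-value is free of that choice. Without replicates 2 and 18 the log2 fold change was 0.82 (edgeR adjusted p = 0.712).

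Of the 5 transcripts of ENSRNOG00000000989, the most abundant held most of this difference. It averaged 3.47 ± 0.720 CPM in HIBD model and 8.32 ± 1.14 CPM in acupuncture libraries (SD, n = 4), with ranges of 2.45 to 4.11 and 7.06 to 9.82. The next transcript averaged 1.68 ± 0.442 and 1.69 ± 0.457 CPM. The groups did not overlap in the first transcript and overlapped in the next one. In the normal group the first transcript ranged from 0.612 to 10.6 CPM. Values of single transcripts depend on how reads were divided among them, and such shares varied widely between normal libraries as well.

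Gene ENSRNOG00000049194 had the next lowest p. It was at 7.37, 8.48, 5.21 and 6.63 CPM in HIBD model replicates 2, 8, 16 and 18 and at 16.8, 23.3, 18.1 and 10.7 CPM in acupuncture replicates 5, 22, 35 and 55. Every treated library lay above every untreated one, with acupuncture replicate 55 nearest to them. The log2 fold change was 1.31, with a 95% interval from 0.83 to 1.80 (SE 0.22, edgeR adjusted p = 0.907). The normal libraries ranged from 7.91 to 9.83 CPM, also below all treated libraries. At least 97.4% of its estimated count in every one of the 12 libraries lay in a transcript named by the assembler rather than in its Ensembl transcript. What the value measures is thus an assembled transcript placed in this gene. With limma-trend on log2(FPKM + 1), a scale that understates changes of low values, the difference was 0.55.

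Among the Ensembl genes at 1 CPM or more, ENSRNOG00000010533 was the lower gene of lowest p. It was at 39.3, 32.6, 35.4 and 44.6 CPM in HIBD model replicates 2, 8, 16 and 18 and at 26.9, 26.0, 24.997 and 26.4 CPM in acupuncture replicates 5, 22, 35 and 55. The treated libraries lay close together and below all untreated ones, and below the normal libraries, which ranged from 30.8 to 42.1 CPM. The log2 fold change was -0.54, with a 95% interval from -0.80 to -0.29 (SE 0.11, edgeR adjusted p = 0.907). Without HIBD model replicates 2 and 18 it was -0.35 (edgeR adjusted p = 1), and with limma-trend on log2(FPKM + 1) it was -0.32.

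The 2 transcripts of ENSRNOG00000010533 differed in opposite directions between the groups. The more abundant one averaged 31.9 ± 5.32 CPM in HIBD model and 12.5 ± 5.45 CPM in acupuncture libraries, and the other 6.08 ± 3.41 and 13.5 ± 5.34 CPM (SD, n = 4). The first held 73.9% to 93.3% of the gene in HIBD model libraries and 28.1% to 76.5% in acupuncture libraries. These ranges overlap, since acupuncture replicate 55, at 76.5%, lay above HIBD model replicate 8, at 73.9%. Normal replicate 8 had 37.2%, within the range of the treated libraries. Neither transcript was tested singly, since the gene was picked for this same contrast.

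**Figure D4:**
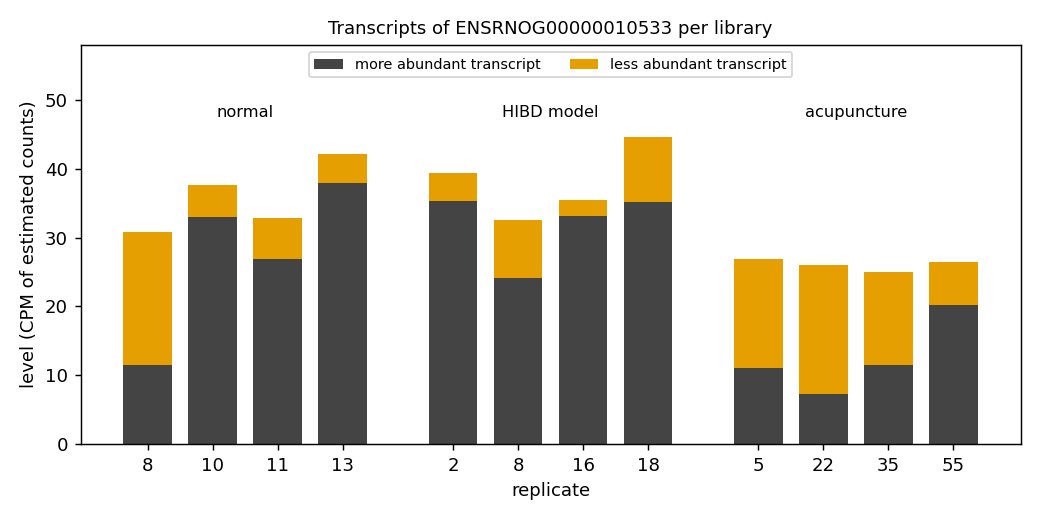
Level of the 2 Ensembl transcripts of ENSRNOG00000010533 (CPM, stacked bars from 0) in each of the 12 libraries, by group and replicate number; dark bars are the transcript that was more abundant over all libraries. The dark transcript holds 73.9% to 93.3% in HIBD model and 28.1% to 76.5% in acupuncture libraries.

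Gene ENSRNOG00000009577 followed the split within the HIBD model group. It was at 265 and 245 CPM in HIBD model replicates 2 and 18 and at 14.6 and 36.4 CPM in replicates 8 and 16. The acupuncture replicates 5, 22, 35 and 55 were at 14.7, 8.43, 7.33 and 8.54 CPM. The groups overlapped by the nearly equal values of HIBD model replicate 8 and acupuncture replicate 5. The log2 fold change was -3.85, with a 95% interval from -5.68 to -2.01 (SE 0.83, edgeR adjusted p = 0.907). Without replicates 2 and 18 it was -1.34 (edgeR adjusted p = 1), with 1 surrogate variable -2.51 and with limma-trend on log2(FPKM + 1) -1.94. The normal libraries ranged from 185 to 434 CPM, so the pair lay within the normal range and the other 6 libraries far below it. The gene is listed with 1 transcript.

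Gene ENSRNOG00000050540 was the only gene called by edgeR when the 8 libraries were fitted without the normal group (adjusted p = 3.47e-06, 26759 genes tested), and it was chosen for description after its values were seen. In each of the 4 HIBD model libraries its estimated count was the smallest that the table's rounding up allows, between 0.000858 and 0.00118 CPM. In acupuncture replicates 5, 22, 35 and 55 it was at 95.4, 109, 69.4 and 56.9 CPM. It was thus listed as all but absent in every untreated library and at a clear level in every treated one. Normal replicate 10 was at 74.2 CPM and the other 3 normal libraries at 0.00101 CPM or less. With all 12 libraries in 1 fit, the call was lost (edgeR unadjusted p = 0.00268, adjusted p = 0.907), and no fold change is given. No other of the 14034 genes was under 0.01 CPM in all libraries of 1 group and at 1 CPM or more in all libraries of the other. DESeq2, fitted to all 12 libraries, gave it an adjusted p of 2.14e-10.

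**Figure D5:**
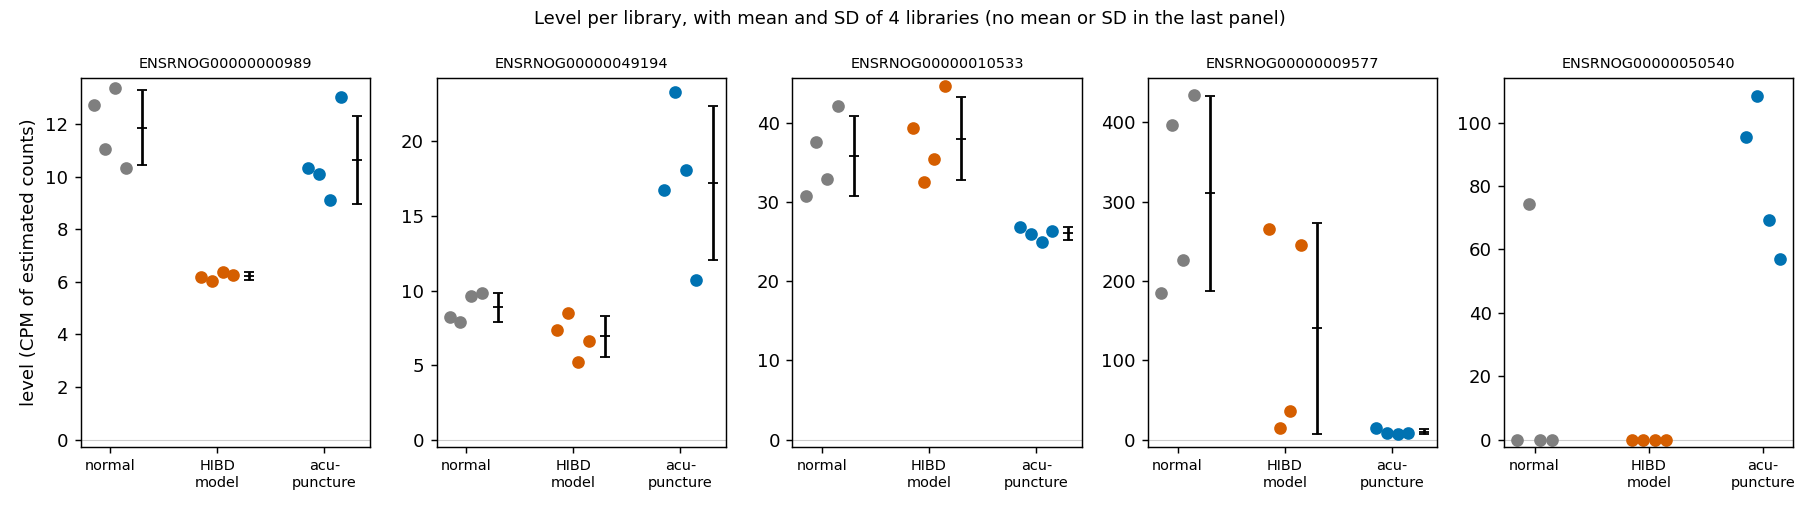
Level (CPM of estimated counts, vertical axis) of the 5 genes described singly, in each of the 12 libraries. Points are libraries, by group (grey normal, orange HIBD model, blue acupuncture). Bars are the mean and SD of 4 libraries where these are given. Every acupuncture library lies above every HIBD model library for ENSRNOG00000000989, ENSRNOG00000049194 and ENSRNOG00000050540 and below for ENSRNOG00000010533, while ENSRNOG00000009577 is at 265 and 245 CPM in HIBD model replicates 2 and 18.

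The other 16 Ensembl genes of lowest p at this level are given without their identifiers. Of these, 7 were higher, with log2 fold changes from 0.33 to 2.34, and all 7 had groups that did not overlap. The other 9 were lower, with log2 fold changes from -4.31 to -0.40, and in 6 of these the groups did not overlap. In 5 of the 9, HIBD model replicates 2 and 18 lay above all other 6 libraries. Over all 14034 genes the groups did not overlap in 2.36%, and replicates 2 and 18 lay above the other 6 libraries in 15.3%. Since the 16 genes were picked by their p in this same contrast, these counts are a description.

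Of the 340 calls of DESeq2, 98 were higher and 242 lower in acupuncture, 149 were assembled loci, and 120 lay outside the genes that edgeR's filter kept. On the genes of that filter DESeq2 called 181, all among the 340. Of the 340, 82 were among the 14034 Ensembl genes at 1 CPM or more, 23 higher and 59 lower. The groups did not overlap in 45 of these 82, against 2.36% of all 14034 genes. HIBD model replicates 2 and 18 lay above all other 6 libraries in 46 of the 82 and below them in 7. Over all 14034 genes these shares were 15.3% and 17.6%. Since the 82 were picked by their p in this same contrast, these counts are a description. Without replicates 2 and 18, DESeq2 called 408 genes of 30422 (1.34%), and the direction turned, with 279 higher and 129 lower. Of these, 109 were among the 340. Among the 14034 genes it then called 67, 48 higher and 19 lower, of which 12 were among the 82. The 5 genes described singly above were among the DESeq2 calls, with DESeq2 adjusted p-values from 2.14e-10 to 0.00298. They were picked on these same libraries, so the calls are not separate support. Without replicates 2 and 18, DESeq2 no longer called ENSRNOG00000010533 (adjusted p = 0.253) and ENSRNOG00000009577 (adjusted p = 0.189), and it still called the other 3.

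Assembled loci, which have no Ensembl identifier, were also without a call by edgeR. The filter kept 1580 assembled loci at a mean of 1 CPM or more over the 8 libraries. Of these, 664 were higher and 916 lower in acupuncture, with a median log2 fold change of -0.06. An unadjusted p under 0.05 was reached by 50 (3.16%), and in 24 (1.52%) the groups did not overlap. A log2 difference of 1 or more in size was reached by 110 loci (6.96%).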

How the data were processed

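RNA from prefrontal cortex was sequenced after Trizol extraction and NEBNext library preparation, per the labels' protocols. HTSeq 0.6.0 and the build Rnor_6.0 are named, without a role, in the submitters' processing notes. Strand setting, assembler and aligner: not given in the sources used here. For all 12 libraries the deposited table held estimated counts for 78025 transcript rows, and the deposited per-sample files held FPKM values, a unit read from the values. Each estimated count equalled FPKM times a row factor and a library factor (median deviation 0.00103% over 12003 rows above 2000 in every library), which paired transcript rows with gene identifiers. What 1 unit is worth in reads, and so the depth in reads, is unknown.

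Whole-number values were summed over transcripts into 43206 genes and tested with edgeR 4.0.16 in R 4.3.3 (TMM, filterByExpr by group, quasi-likelihood test, 12 libraries in 1 fit, no covariate), with Benjamini-Hochberg adjustment over 27885 genes and a threshold of 0.05. Standard errors came from the F statistic, and intervals from the t distribution with the fit's degrees of freedom. A run on simulated counts checked only that the code returns changes put in. Those counts had the same spread in every gene and no split within a group. The run therefore says nothing of power or error in these data. Alternatives used RLE size factors, DESeq2 1.42.0, limma-voom and limma-trend (limma 3.58.1) on log2(FPKM + 1) and log2(FPKM + 0.1), other filters, 8 libraries, Ensembl genes alone, 1 surrogate variable (sva 3.50.0) and each replicate left out. The fits without HIBD model replicates 2 and 18, by edgeR and by DESeq2, and DESeq2 on edgeR's genes, were added after seeing the data. The genes described singly are the 2 higher and 2 lower Ensembl genes of lowest p at 1 CPM or more. To these, 1 gene was added after its values were seen. Members, lists and tests were chosen with earlier results of these data known. The 34 lists of gene symbols could not be matched, because the reference table (assembly GRCr8) holds no Ensembl identifiers.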

Additional observations from a re-analysis of the deposited data

Results flagged for a closer look

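In 4 of 32 sets of 4 libraries tested, 1 library lay far from the other 3 (Dixon's test at its 95% level). Chance flags about 1 in 20 of independent sets that were not picked. These sets share libraries, and some are of genes picked from the same values, so that rate does not apply to them. Acupuncture replicate 5 was at 14.7 CPM for ENSRNOG00000009577, against 7.33 to 8.54 CPM in the other acupuncture libraries. Normal replicate 10 was at 74.2 CPM for ENSRNOG00000050540, against 0.00101 CPM or less in the other normal libraries. HIBD model replicate 18 had a total of 1090 in units of 1000000 estimated counts, against 891 to 900 in the other HIBD model libraries. Normal replicate 10 had 1.51% of its estimated counts in assembled loci, against 0.795% to 0.874% in the other normal libraries.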

How the results depend on the processing

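No paired analysis was made, because the labels name no matched animals. Acupuncture and HIBD model libraries share no replicate number, which does not show whether animals were matched. The number of genes called at an adjusted p of 0.05 was 0 with edgeR on 12 libraries (1481 at an unadjusted p under 0.05) and 0 to 1 with each replicate left out. It was 340 with DESeq2, 181 with DESeq2 on edgeR's genes, 408 with DESeq2 without HIBD model replicates 2 and 18, 1 with the 8 libraries alone and 1 with edgeR without that pair; it was 0 with RLE size factors, limma-voom, limma-trend at both pseudocounts, 1 surrogate variable, no filter, the filter of 1 CPM in 4 libraries and Ensembl genes alone. The gene called without acupuncture replicate 5 was ENSRNOG00000054513 (edgeR adjusted p = 0.0243), listed at 0 in all HIBD model and normal libraries and in that replicate, and at 15.6, 16.9 and 17.8 CPM in the other 3. The gene called by edgeR without the pair was ENSRNOG00000049422 (edgeR adjusted p = 0.000718), listed at 0 in HIBD model replicates 8 and 16 and at 0.876 to 2.31 CPM in the other 10 libraries. ENSRNOG00000054513 was not among the genes tested with all 12 libraries. Both genes were named after their values were seen. The number at an unadjusted p under 0.05 was 897 to 2849 with each replicate left out and 2365 with DESeq2, and it stayed within 1.5 times of 1481 in the other alternatives. The share of these genes higher in acupuncture was 36.6% with edgeR on 12 libraries. It was 54.1% with limma-voom, 51.2% and 50.6% with limma-trend and 62.4% with 1 surrogate variable. Without the pair it was 70.6% with edgeR and 67.2% with DESeq2. In all other alternatives most of these genes stayed lower in acupuncture. There the share higher ran from 34.5% with RLE size factors to 43.8% without HIBD model replicate 18, and was 36.3% with DESeq2. The median log2 fold change of Ensembl genes was -0.055 with scaling by library total only and 0.046 without the pair. The share of genes with the larger SD in the HIBD model group, 63.6%, was 54.5% to 66.8% with single replicates left out and 40.6% without the pair. With each replicate left out, the difference between acupuncture and HIBD model means ranged from -93.3 to 16.5 in the total in units of 1000000 estimated counts, from -186 to 18.5 in Ensembl genes above 0, from -0.259 to 0.115 percentage points in assembled loci, from -0.254 to 1.36 in the 10 most abundant genes and from -0.0155 to 0.0297 in the length correlation. The 4 genes named by rule kept their direction in all alternatives. Why these values moved was not tested.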
